A study of Mus musculus with 13 samples.

Results

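The genes described here are 33 actins, actin-binding proteins, non-muscle myosin chains, focal adhesion proteins and the transcription factor SRF, set as a list of gene symbols for the contractile and adhesion machinery of the cell. They were 33 of the 25655 genes with a value in each culture, and all 33 were at 1 TPM or more in all 13 cultures. TPM, the authors' unit, is the share of a transcript among all transcripts after correction for its length, so that levels of different genes can be set side by side. The values came from primary cultures of dermal fibroblasts of newborn mice that carried the Fbn1 G234D allele on both copies (G234D) or were wild type (WT). Fbn1 encodes fibrillin-1, the main protein of the extracellular microfibrils. The study asked whether the mutation changes the fibroblasts themselves and, through them, the expression of matrix genes. Set 1 held 4 G234D cultures (M1 to M4) and 4 WT cultures (W1 to W4), and a further set, set 2, held 3 G234D cultures (M5 to M7) and 2 WT cultures (W5 and W6). Per the design text the cultures of a set came from separate mice, and per the labels they were untreated. The labels used here name neither strain nor sex.

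The sample titles carry numbers, and in set 1 these fall into groups of 4. M3, M4, W3 and W4 hold 4 consecutive later numbers, and M1, M2, W1 and W2 the earlier ones. Of the earlier numbers, those of M1, M2 and W2 lie close together, while that of W1 lies well below them. The labels do not say what a number marks, and 2 G234D and 2 WT cultures stand on each side. M1 and M2 stood apart from the other cultures of set 1 in RNA of other cell types. The summed level of 27 skeletal muscle markers was 675 and 489.7 TPM in M1 and M2, against 109.6 to 231 TPM in the other 6 cultures of set 1, and that of 11 Schwann cell and melanocyte markers was 128 and 130.1 TPM, against 21.3 to 44.7 TPM. The sum of 10 macrophage markers was 60.6 TPM in M1 and 86.6 TPM in M2, against 15.7 to 36.7 TPM. For the 33 genes, the comparisons over both sets, in set 1, between sets and between number groups are given also without M1 and M2. For the genotype difference among the earlier numbers, and its change between number groups, no such value can be had. Without M1 and M2, the G234D cultures of set 1 are all later-numbered and are set against WT cultures of both number groups. The genotype fits without M1 and M2 therefore mix genotype with number group. The sum of 12 fibroblast markers was high in every culture, between 23694 and 34729 TPM, with Col1a1, a fibrillar collagen chain, at 9405 TPM or more and Vim, the intermediate filament vimentin, at 3439.7 TPM or more. The collagens and Vim carried most of this sum, and other markers of the list were low, among them Fap, at 3.19 to 11.8 TPM, and Lum, the proteoglycan lumican, at 5.37 to 19.7 TPM. Keratinocyte and endothelial sums of 8 genes each stayed at or under 8.67 TPM. Fbn1 itself averaged 542 ± 50.2 TPM in G234D and 491 ± 42.8 TPM in WT cultures of set 1 (SD, n = 4 each), and 452 ± 32.2 TPM (n = 3) and 405 ± 8.03 TPM (n = 2) in set 2; over both sets the difference was 0.15 ± 0.058 (SE), with an adjusted p of 0.742. The labels name the allele by an amino acid change, so the transcript level does not check the genotype labels.

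Fibroblasts pull on their surroundings with bundles of actin filaments and non-muscle myosin II. Tropomyosins lie along the filaments, calponins and caldesmon bind them and restrain the myosin, and alpha-actinins and filamins cross-link them. At focal adhesions, talin, vinculin and zyxin join the bundles to integrins and so to the matrix outside. Smooth muscle alpha-actin, the product of Acta2, is the usual marker of the myofibroblast, the contractile form that fibroblasts take up in wounds and on stiff culture surfaces. Many of these genes are switched on by SRF, which binds a DNA element called the CArG box and works with the MRTF cofactors. Free actin monomers hold the MRTF proteins back, so that actin assembly feeds into the transcription of actin genes.

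The CArG box is the element that many of these genes are known to share, and the sequences around it are given for that reason. RefSeq start sites on GRCm38.p6, with 250 bases before and 50 bases after each, were at hand for 30 of the 33 genes; Actb, Actg2 and Tagln had none. The search for the CArG box (a CC, a run of A or T and a GG, which reads the same class of letters on both strands) found an exact match in 6 of these 30 genes, or 20%, against 488 of 27025 genes with a promoter in the table, or 1.81%. With up to 1 letter off, the box was in 14 of the 30 genes (46.7%) and in 23.8% of all genes. A match describes the letters and does not show that SRF binds there. The 7 exact boxes are in capitals, each with 10 bases on both sides, read 5′ to 3′ on the strand of the gene.
Actg1 (chr11:120348566-120348595, minus strand): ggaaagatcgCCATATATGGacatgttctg
Cnn2 (chr10:79988534-79988563, plus strand): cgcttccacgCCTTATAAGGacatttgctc
Myl6 (chr10:128493040-128493069, minus strand): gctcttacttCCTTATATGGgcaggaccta
Myl9 (chr2:156775293-156775322, plus strand): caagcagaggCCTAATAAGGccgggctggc
Srf (chr17:46556205-46556234, minus strand): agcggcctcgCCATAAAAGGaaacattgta
Srf (chr17:46556225-46556254, minus strand): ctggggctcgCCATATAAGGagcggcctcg
Vcl (chr14:20929161-20929190, plus strand): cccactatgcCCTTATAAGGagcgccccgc
Counted from the start site, with bases before it negative, the boxes began between -227 and -50. Srf, which encodes SRF itself, held 2 boxes.

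Acta2, the most abundant of the 33 genes, held no exact box in its window. The 250 bases before its start site (GRCm38.p6 chr19:34255374-34255623, minus strand) contain 2 boxes with 1 letter off, in capitals, which begin at -84 and -34.
Acta2: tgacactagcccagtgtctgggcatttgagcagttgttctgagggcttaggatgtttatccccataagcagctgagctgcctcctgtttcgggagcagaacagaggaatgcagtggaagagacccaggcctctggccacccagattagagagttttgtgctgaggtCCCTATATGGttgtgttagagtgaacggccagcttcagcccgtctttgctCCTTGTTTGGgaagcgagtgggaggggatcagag

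The contractile and adhesion genes were among the most abundant transcripts of these fibroblasts. Together they made up between 2.98% of all TPM (M4) and 4.07% (M2). Acta2 led with a median of 5211 TPM over the 13 cultures, followed by the cytoplasmic actins Actb at 4960.4 TPM and Actg1 at 4778 TPM and by Tagln, the actin-bundling transgelin of smooth muscle, at 2910.2 TPM. The least abundant were Mylk, the kinase that switches on myosin by phosphorylating its light chain, at a median of 14.0 TPM, and Myl12b, a regulatory light chain, at 45.1 TPM. The actins summed to 13885 to 19296 TPM, the calponin, transgelin and caldesmon genes to 5617 to 7688 TPM, and the 7 myosin genes to 3266 to 4114 TPM. Within set 1 the highest culture exceeded the lowest by a median of 1.36-fold over the 33 genes, and most for Cnn1 (2.51-fold), Actg2 (2.24-fold) and Tpm1 (2.00-fold). Within set 2 the median was 1.11-fold, and the widest range was that of Mylk at 1.41-fold. The 11 genes best known from smooth muscle (Acta2, Actg2, Tagln, Cnn1, Lmod1, Myl9, Mylk, Cald1, Tpm1, Tpm2 and Csrp1) had a median range of 1.55-fold in set 1, against 1.31-fold for the other 22 genes. M4 was the lowest culture of set 1 for 27 of the 33 genes, while it was the lowest for 23.7% of all genes. M2 was the highest for 17 of the 33, against 13.2% of all genes.

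**Figure D1:**
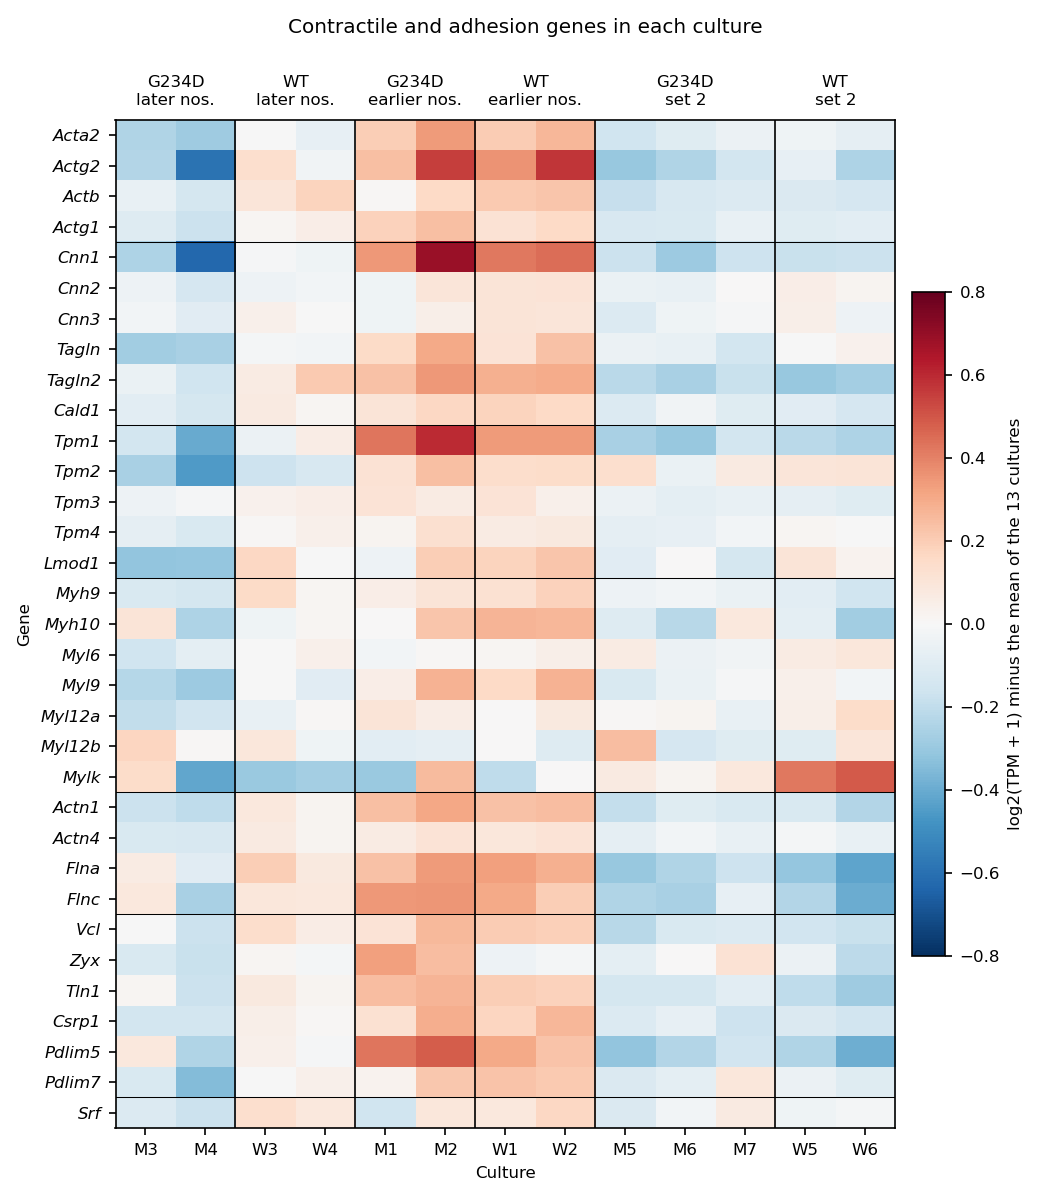
Level of each of the 33 genes (rows, by role) in each culture (columns) as log2(TPM + 1) minus the gene's mean over the 13 cultures; red is higher and blue lower, and colours end at 0.8 on either side. Columns run from later-numbered to earlier-numbered cultures of set 1 and then set 2, with G234D left of WT; the earlier-numbered cultures are red in most rows and M4 is the lowest culture of set 1 in 27 rows.

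Between genotypes, no gene of the list passed the test over both sets. The difference was taken as G234D minus WT on the log2(TPM + 1) scale, with the set as a covariate, and a gene was called at an adjusted p under 0.05 with limma and Benjamini-Hochberg adjustment over all 11942 genes tested. Of the 33 genes, 0 were called, and of all genes 0 (0.0%); the lowest adjusted p was 0.742 among the 33 and 0.449 among all genes. At an unadjusted p under 0.05 stood 4 of the 33, all lower in G234D, against 2.22% of all genes lower at that level. These 4 were Lmod1, Srf, Myl6 and Actb. The difference was below 0 for 28 of the 33 genes and for 43.4% of all genes, with a median of -0.060 for the 33 and 0.011 for all genes. Without M4, 19 of the 33 were below 0 and the median was -0.011, and without M1 and M2 32 of the 33 were, with a median of -0.12. Of the 33, 0 were called in either. Without M1 and M2, only later-numbered G234D cultures of set 1 remain, so genotype is mixed with number group there. The 95% intervals of all 33 genes lay within a 1.5-fold change in either direction, as did those of 94.6% of all genes. In bulk RNA such as this, fewer cells that make a transcript and less of it per cell cannot be told apart.

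Lmod1 encodes leiomodin, which nucleates actin filaments in smooth muscle. It had 79.5 and 80.1 TPM in the later-numbered G234D cultures, against 111 and 99.3 TPM in the later-numbered WT cultures. The earlier cultures stood at 96.6 and 114 TPM with G234D and 113 and 116 TPM in WT. The set 2 values were 93.4, 99.7 and 89.9 TPM in G234D and 107 and 101 TPM in WT cultures. M3 and M4 were the lowest of all 13 cultures, M2 lay within the WT range of set 1, and in set 2 all 3 G234D cultures lay below both WT cultures. Over both sets the difference was -0.21 ± 0.077 (SE) (95% interval -0.38 to -0.049; unadjusted p = 0.0149, adjusted p = 0.742).

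Srf showed a smaller gap. It had 76.9 and 73.7 TPM in the later-numbered G234D cultures, against 91.2 and 88.0 TPM in the later-numbered WT cultures. Earlier-numbered cultures were at 74.4 and 88.5 TPM with G234D and 88.3 and 93.5 TPM in WT. In set 2 it had 76.8, 82.0 and 87.5 TPM in G234D and 81.1 and 82.4 TPM in WT cultures. The G234D cultures of set 1 other than M2 lay below all 4 WT cultures, and those of set 2 lay on both sides of the WT values. The difference over both sets was -0.13 ± 0.053 (SE) (95% interval -0.24 to -0.013; adjusted p = 0.742).

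Myl6 encodes the essential light chain of non-muscle and smooth muscle myosin. It had 908 and 960.2 TPM in the later-numbered G234D cultures, against 1009.9 and 1044 TPM in the later-numbered WT cultures. The earlier cultures stood at 998 and 1019 TPM with G234D and 1024 and 1047 TPM in WT. The set 2 values were 1063, 980.1 and 995 TPM in G234D and 1063 and 1081 TPM in WT cultures. The genotypes did not overlap among the later-numbered, the earlier-numbered or the set 2 cultures, and G234D was lower in each, in set 2 by less than 1 TPM between M5 and W5. Its difference was -0.086 ± 0.036 (SE) over both sets (adjusted p = 0.742). About 8.38% of the 50-base stretches of its transcripts also occur in other genes, so its count could be shared.

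Actb, the cytoplasmic beta-actin that is often used as a reference gene, had 4960.4 and 4685 TPM in the later-numbered G234D cultures, against 5526 and 5843 TPM in the later-numbered WT cultures. Earlier-numbered cultures were at 5202 and 5776 TPM with G234D and 5976 and 6041 TPM in WT. In set 2 it had 4553, 4736 and 4794 TPM in G234D and 4773 and 4709 TPM in WT cultures. In set 1 only M2 reached the WT range, and in set 2 the genotypes overlapped. Over both sets the difference was -0.12 ± 0.054 (SE) (adjusted p = 0.765), and 9.12% of its 50-base stretches also occur in other genes.

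The sets were also fitted apart. In set 1, 0 of the 33 genes were called (0.0% of 11905 genes), 29 had a difference below 0 (50.2% of all genes) and the median was -0.092 (-0.00038 for all genes). In none of the 33 were all 4 G234D cultures on the same side of all 4 WT cultures (2.19% of all genes lower and 1.96% higher). Without M1 and M2, Lmod1 was called lower in G234D (-0.45 ± 0.065 (SE), adjusted p = 0.0455), where 0.191% of all genes were called in either direction. Then 31 of the 33 were below 0, with a median of -0.24. Only later-numbered G234D cultures remain in that fit, against WT cultures of both number groups, so it mixes genotype with number group. In set 2, 0 of the 33 were called, against 0.00829% of 12060 genes (1 gene), and the differences were below 0 for 17 of the 33 genes (37.6% of all genes) and above 0 for 16, with a median of -0.0062 that was above 0 without M5 (0.0062), M6 (0.0045) or W5 (0.0089). The set by genotype interaction called 0 of the 33 and 0 of all genes (0.0%); the lowest adjusted p among the 33 was 0.851, for Mylk and Myh9. Without M1 and M2 it called 0 of the 33 and 0.134% of all genes, with a median of 0.28, set 2 minus set 1. The same mixing with the number group holds for this value. Mylk stood out in set 2, where it had 14.6, 14.0 and 14.7 TPM in G234D, against 18.8 and 19.8 TPM in WT cultures. The groups did not overlap there, at -0.40 ± 0.078 (SE), with an unadjusted p of 0.000524 but an adjusted p of 0.52; in set 1 it ranged from 10.1 to 16.6 TPM in G234D and from 11.0 to 13.9 TPM in WT cultures, which overlapped.

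In set 1 the genes also differed along the title numbers. With genotype as a covariate, 15 of the 33 genes were lower in the later-numbered than in the earlier-numbered cultures and 0 were higher, against 4.35% of 11905 genes called lower and 2.79% called higher. The difference was below 0 for 32 of the 33 genes (56.7% of all genes), with a median of -0.23 for the 33 and -0.022 for all genes. All 4 later-numbered cultures lay below all 4 earlier-numbered cultures for 16 of the 33 genes, against 9.77% of all genes. Of the 11 smooth muscle type genes 9 were called lower, with a median of -0.34, and of the other 22 genes 6 were, with a median of -0.17; a difference between these groups of genes was not tested. By role, the genes called were Acta2 and Actg2 of 4 actins; Cnn1, Tagln, Tagln2 and Cald1 of 6 calponin, transgelin and caldesmon genes; Tpm1 and Tpm2 of 5 tropomyosin and leiomodin genes; Myl9 of 7 myosin genes; Actn1 and Flna of 4 cross-linkers; and Tln1, Csrp1, Pdlim5 and Pdlim7 of 6 focal adhesion and LIM genes. Only Myl12b was above 0.

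This count rested on few cultures. It was 0 without M2, 1 without M1, 3 without M3, 7 without M4 and 8 without W1, and between 11 and 14 without W2, W3 or W4, while the median difference stayed between -0.26 and -0.18. Without M1 and M2 together, the cultures with the highest muscle, Schwann cell and macrophage marker sums, 0 of the 33 and 0.108% of 12043 genes were called, 31 of the 33 were below 0 and the median was -0.14. The skeletal muscle sum moved with the comparison, at 109.6 to 231 TPM in the later-numbered cultures, against 176 to 213 TPM in W1 and W2 and 675 and 489.7 TPM in M1 and M2; its part in the result was not tested. Taken within each genotype, an alternative added after the data were seen, the later-numbered cultures were lower in G234D for 25 of the 33 genes called (14.0% of 11942 genes called lower), with a median of -0.34. In WT alone, with muscle marker sums of 165 to 231 TPM in the later and 176 to 213 TPM in the earlier cultures, 0 of the 33 were called (0.184% of genes called lower; lowest adjusted p = 0.0612), 31 of 33 were below 0 (61.5% of all genes), 17 of them at an unadjusted p under 0.05 (7.24% of all genes), and the median was -0.14. The later WT cultures lay below the earlier WT cultures for 26 of the 33 genes, against 30.6% of all genes, and the later G234D below the earlier G234D cultures for 28, against 32.6%.

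**Figure D2:**
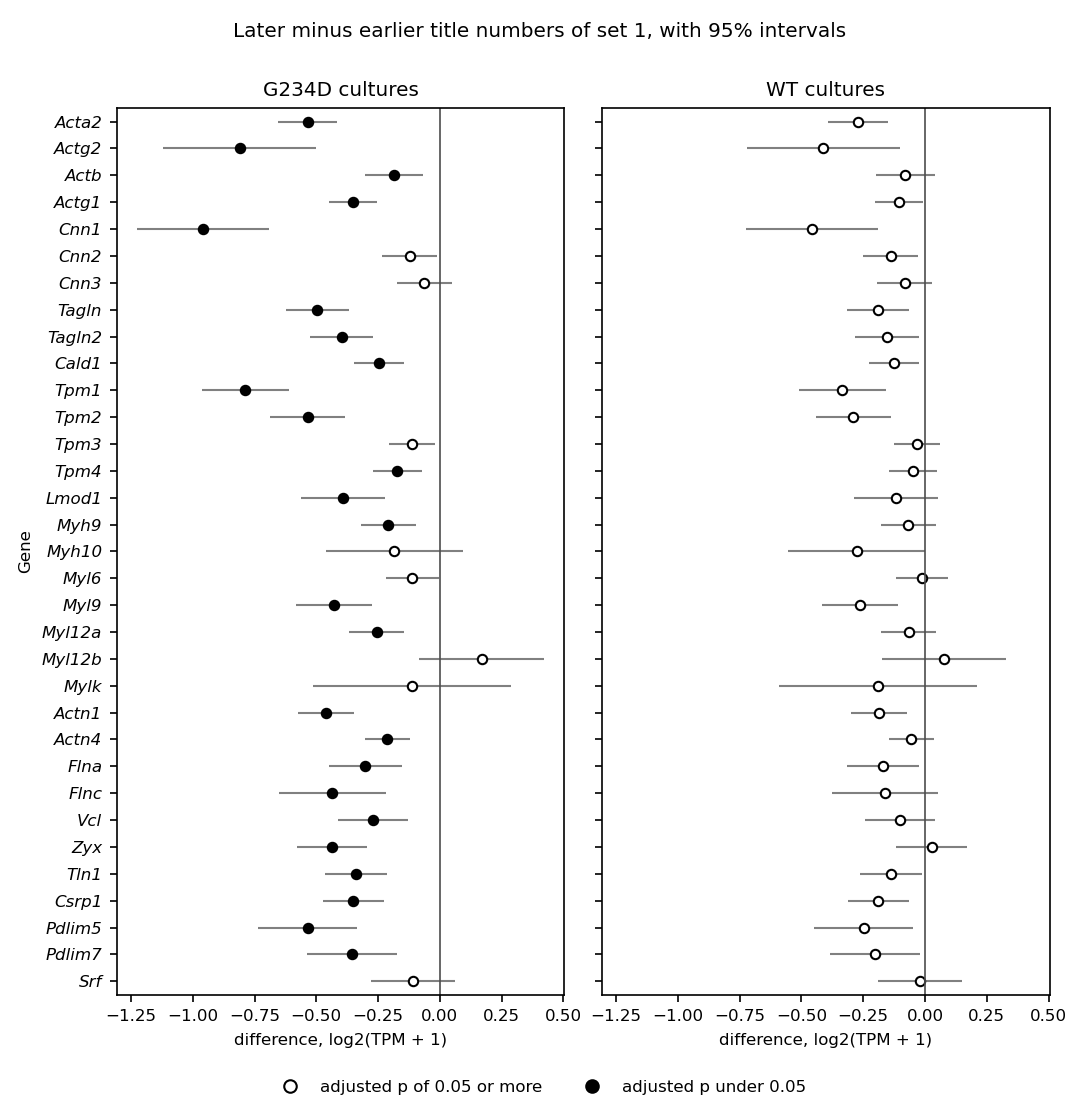
Difference of later minus earlier title numbers in set 1 for each of the 33 genes, in log2(TPM + 1), in the G234D cultures (left) and the WT cultures (right), 2 against 2 in each; points are estimates, lines 95% intervals, and filled points have an adjusted p under 0.05. In G234D 25 genes are filled and in WT 0, and 28 of the 33 estimates are lower in G234D than in WT.

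Among the actins, Acta2 had 4554 and 4422 TPM in the later-numbered G234D cultures, against 5373 and 5152 TPM in the later-numbered WT cultures. The earlier cultures stood at 6179.8 and 6830.2 TPM with G234D and 6215 and 6487 TPM in WT. The set 2 values were 4829, 5049 and 5211 TPM in G234D and 5257 and 5136 TPM in WT cultures. M4 and M3 were the lowest of the 13 cultures, and all 4 earlier-numbered cultures lay above all others. Later minus earlier numbers gave -0.40 ± 0.066 (SE), a fold of 0.757, with an adjusted p of 0.0176. Acta2 set against Actb within a culture had a ratio of 0.918 and 0.944 in M3 and M4, 0.972 and 0.882 in W3 and W4, 1.19 and 1.18 in M1 and M2, and 1.04 and 1.07 in W1 and W2. Actg2, the actin of gut smooth muscle, had 464 and 362 TPM in the later-numbered G234D cultures, against 599 and 535 TPM in the later-numbered WT cultures. Earlier-numbered cultures were at 645 and 803 TPM with G234D and 699 and 811 TPM in WT. It spread more widely than Acta2, and again the later-numbered cultures lay below the earlier ones (-0.61 ± 0.12 (SE), adjusted p = 0.0326). In set 2 it lay between 442 and 523 TPM. Actg1, the cytoplasmic gamma-actin, had 4619.7 and 4416 TPM in the later-numbered G234D cultures, against 5016 and 5155 TPM in the later-numbered WT cultures. The earlier-numbered cultures had 5649 and 5887 TPM with G234D and 5389 and 5542 TPM in WT. Set 2 gave 4552, 4579 and 4778 TPM in G234D and 4649.9 and 4683 TPM in WT cultures. M3 and M4 were the lowest of set 1 and M1 and M2 the highest, with the WT cultures between them. The number difference was -0.23 ± 0.061 (SE) (adjusted p = 0.0532), and 37.4% of its 50-base stretches also occur in other genes, most of them in Gm12715, so that its level is uncertain.

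**Figure D3:**
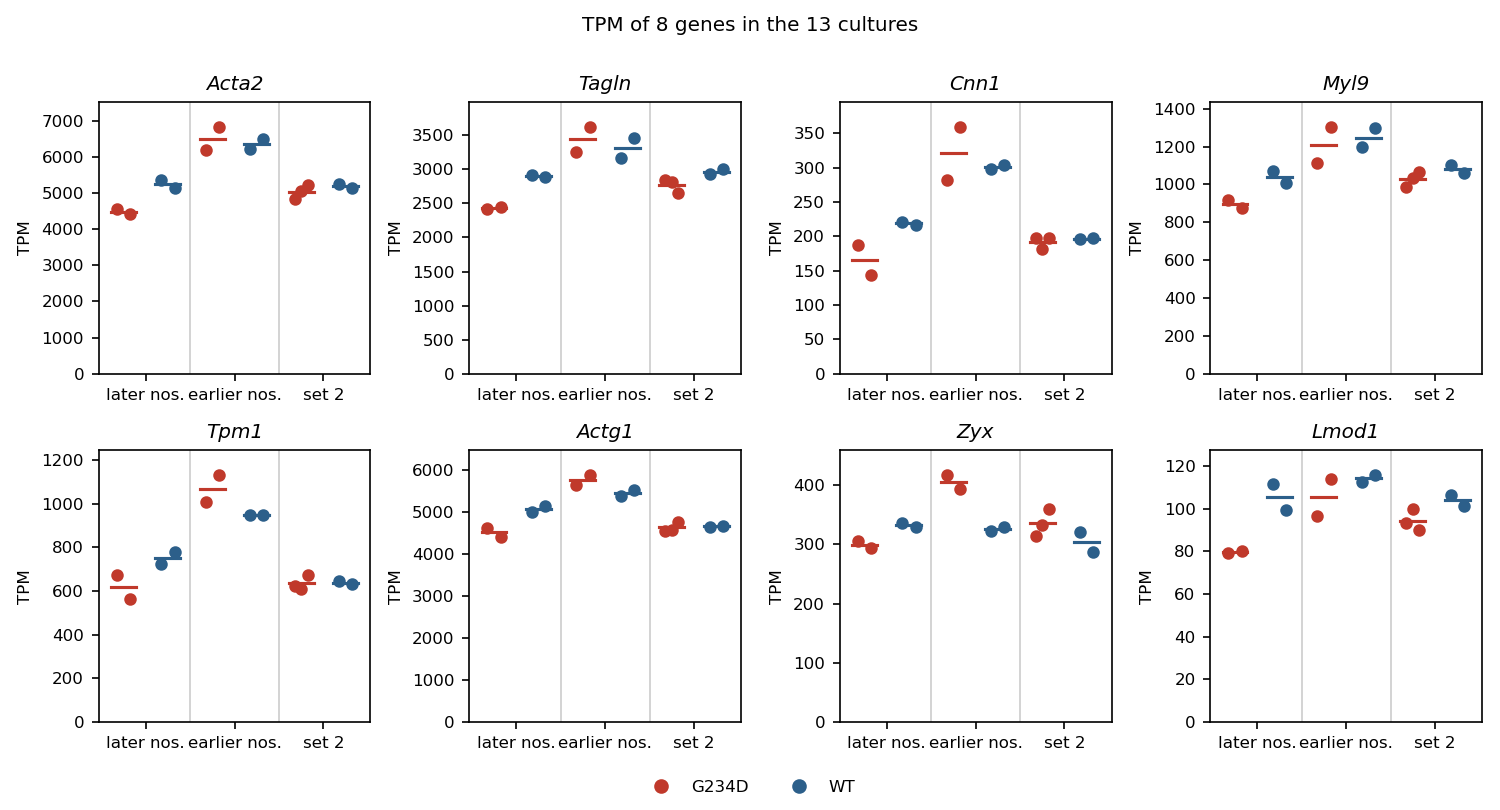
TPM of Acta2, Tagln, Cnn1, Myl9, Tpm1, Actg1, Zyx and Lmod1 in each culture; each point is 1 culture, bars are means, red is G234D and blue is WT, and every axis starts at 0. In all 8 panels both later-numbered G234D cultures lie below both later-numbered WT cultures, while in set 2 the points of all but Tagln and Lmod1 overlap.

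Among the proteins that bind along the filament, Tagln had 2424 and 2451 TPM in the later-numbered G234D cultures, against 2910.2 and 2893 TPM in the later-numbered WT cultures. Values in the earlier cultures were 3261 and 3623 TPM with G234D and 3168 and 3457 TPM in WT. Set 2 cultures held 2845, 2820.0 and 2658 TPM in G234D and 2926 and 3003 TPM in WT cultures. The later-numbered G234D cultures were the lowest of all, and the set 2 G234D cultures lay below both WT cultures of that set. Later minus earlier numbers gave -0.34 ± 0.071 (SE), with an adjusted p of 0.0292. Cnn1 encodes the calponin of smooth muscle. It had 187 and 143 TPM in the later-numbered G234D cultures, against 221 and 217 TPM in the later-numbered WT cultures. The earlier-numbered cultures had 283 and 359.6 TPM with G234D and 299 and 304 TPM in WT. Set 2 gave 197, 181 and 198 TPM in G234D and 196 and 197 TPM in WT cultures. The number difference, -0.71 ± 0.13 (SE), was the largest of the 33 genes (a fold of 0.612, adjusted p = 0.0287), and the 5 cultures of set 2 lay above M4 and below W3 and W4. The related calponins Cnn2 and Cnn3, found in many cell types, ranged from 804 to 954 TPM and from 593 to 687 TPM over the 13 cultures, and neither was called between genotypes or between number groups. Tagln2 ranged from 473 to 742 TPM and Cald1 from 1097 to 1366 TPM; both were called lower in the later-numbered cultures (-0.28 ± 0.063 (SE) and -0.19 ± 0.045 (SE)).

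Tpm1, a tropomyosin of muscle and stress fibres, had 676 and 566 TPM in the later-numbered G234D cultures, against 724 and 780.2 TPM in the later-numbered WT cultures. Values in the earlier cultures were 1008 and 1132 TPM with G234D and 948 and 947 TPM in WT. Set 2 cultures held 625, 608 and 676 TPM in G234D and 646 and 631 TPM in WT cultures. The earlier-numbered cultures lay above all others, and M2 above all. Its number difference was -0.56 ± 0.10 (SE) (a fold of 0.678, adjusted p = 0.0252). Tpm2, the beta-tropomyosin, had 534 and 467 TPM in the later-numbered G234D cultures, against 569 and 585 TPM in the later-numbered WT cultures. The earlier-numbered cultures had 693 and 755 TPM with G234D and 704 and 708 TPM in WT. Set 2 gave 702, 617 and 673 TPM in G234D and 684 and 685 TPM in WT cultures. The later-numbered cultures were the 4 lowest of the 13, and the number difference was -0.41 ± 0.065 (SE) (adjusted p = 0.0151), the smallest p of the 33 genes. Tpm3 and Tpm4, the tropomyosins of the cytoskeleton, ranged from 314 to 363 TPM and from 1447 to 1721 TPM and were called neither between genotypes nor, with both genotypes in the fit, between number groups; 23.2% and 11.7% of their 50-base stretches occur in other genes.

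Of the myosin genes, Myl9 encodes the regulatory light chain of smooth muscle and non-muscle myosin. It had 917 and 878 TPM in the later-numbered G234D cultures, against 1072 and 1007 TPM in the later-numbered WT cultures. Values in the earlier cultures were 1116 and 1304 TPM with G234D and 1196 and 1299 TPM in WT. Set 2 cultures held 987, 1035 and 1067 TPM in G234D and 1105 and 1059 TPM in WT cultures. M4 and M3 were the lowest cultures, and the number difference was -0.34 ± 0.064 (SE) (adjusted p = 0.0243). It was the only 1 of the 7 myosin genes that was called. The heavy chains Myh9 and Myh10 had number differences of -0.14 ± 0.050 (SE) and -0.23 ± 0.078 (SE), with adjusted p of 0.121 and 0.1. Myl12a, a further regulatory light chain, ranged from 341 to 433 TPM and its neighbour on chromosome 17, Myl12b, from 41.9 to 55.0 TPM; 16.4% and 19.1% of their 50-base stretches occur elsewhere, most of them in each other. Mylk, at 10.1 to 19.8 TPM, had a number difference of -0.15 ± 0.15 (SE) (adjusted p = 0.553), and did not pass.

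Among the cross-linkers and focal adhesion genes, Actn1, the alpha-actinin of stress fibres and adhesions, had 651 and 637 TPM in the later-numbered G234D cultures, against 777 and 742 TPM in the later-numbered WT cultures. The earlier-numbered cultures had 867 and 906 TPM with G234D and 861 and 868 TPM in WT. Set 2 gave 643, 686 and 673 TPM in G234D and 674 and 621 TPM in WT cultures. All later-numbered and set 2 cultures lay below the earlier-numbered ones, at -0.32 ± 0.059 (SE) for the number difference (adjusted p = 0.0231). Csrp1, a LIM protein that binds alpha-actinin and zyxin, had 840.0 and 839.7 TPM in the later-numbered G234D cultures, against 958 and 936 TPM in the later-numbered WT cultures. Values in the earlier cultures were 1011 and 1135 TPM with G234D and 1045 and 1116 TPM in WT. Its later-numbered cultures all lay below its earlier ones (-0.27 ± 0.055 (SE), adjusted p = 0.0279), and its set 2 cultures ranged from 829 to 888 TPM. Pdlim5, which links alpha-actinin to kinases, had 85.7 and 68.2 TPM in the later-numbered G234D cultures, against 83.1 and 80.0 TPM in the later-numbered WT cultures. Earlier-numbered cultures were at 109 and 113 TPM with G234D and 99.6 and 94.5 TPM in WT. Again the number groups did not overlap (-0.39 ± 0.081 (SE), adjusted p = 0.03). Flna, the main filamin of fibroblasts, was called at -0.24 ± 0.057 (SE), Tln1, the talin that activates integrins, at -0.24 ± 0.056 (SE), and Pdlim7, a LIM protein of actin bundles, at -0.28 ± 0.063 (SE). Actn4, Flnc, Vcl (vinculin) and Zyx (zyxin) were not called in this comparison; their values were -0.13 ± 0.044 (SE), -0.30 ± 0.081 (SE), -0.19 ± 0.058 (SE) and -0.20 ± 0.086 (SE). Srf itself had a number difference of -0.063 ± 0.058 (SE) (adjusted p = 0.52), which did not exceed the spread between cultures.

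Within the number groups, the genotype difference was fitted with 2 cultures against 2 and the spread borrowed from all 13. In the later-numbered cultures, 1 of the 33 genes was called, Lmod1, which was lower in G234D (-0.39 ± 0.079 (SE), adjusted p = 0.0478), against 0.31% of 11942 genes called lower. The difference was below 0 for 31 of the 33 genes (47.1% of all genes), with a median of -0.17 for the 33 and 0.0093 for all genes, and 25 stood at an unadjusted p under 0.05 and below 0 (5.81% of all genes). For 28 of the 33, M3 and M4 both lay below W3 and W4, against 18.4% of all genes; Cnn2, Myh10, Myl12b, Mylk and Pdlim5 overlapped. The other low values were those of Actn1 (-0.24 ± 0.052 (SE), adjusted p = 0.0657), Tagln (-0.25 ± 0.058 (SE), 0.0839), Actb (-0.24 ± 0.055 (SE), 0.0839) and Acta2 (-0.23 ± 0.055 (SE), 0.0939), none of which passed. The Lmod1 call was lost without any 1 of W1, W2, M3, M4, W3, W4, M5, M7, W5 and W6, with adjusted p between 0.0506 and 0.27, and held without M1, M2 or M6. A block was also fitted that joined same-numbered cultures, meaning M1 with W1 and so on by culture name, not by title number. With this block, Lmod1 was not called (adjusted p = 0.0826) and Actg2 was (-0.46 ± 0.072 (SE), adjusted p = 0.0409). The median stayed between -0.24 and -0.14. M1 and M2 take no part in this difference except through the shared spread, and the skeletal muscle sum was 159 and 109.6 TPM in M3 and M4, against 165 and 231 TPM in W3 and W4. The sum of Schwann cell and melanocyte markers was 44.7 and 32.2 TPM in M3 and M4, against 26.0 and 27.7 TPM in W3 and W4, and all 6 tested were above 0, with a median of 0.41 and 0 called. Of 17 smooth muscle and pericyte markers outside the 33 genes, 15 were below 0, with a median of -0.30 and 0 called. The part of these markers in the result was not tested.

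Among the earlier-numbered cultures the picture was mixed. The difference was below 0 for 18 of the 33 genes (52.8% of all genes) and above 0 for 15, with a median of -0.012. Zyx encodes zyxin, a LIM protein that gathers at adhesions under tension, and it was the 1 gene called: it had 417 and 394 TPM in the earlier-numbered G234D cultures, against 323 and 329 TPM in the earlier-numbered WT cultures. Both G234D values lay above both WT values, at 0.31 ± 0.066 (SE) (adjusted p = 0.0158), against 3.31% of all genes called higher. In either direction 5.59% of all genes were called here, so 1 call of 33 does not set the list apart from all genes. The call was lost without W1, M1 or W2, and the median of the 33 genes was above 0 without M1 (0.058) or W2 (0.012). In the later-numbered cultures Zyx had 305 and 294 TPM in the later-numbered G234D cultures, against 335 and 329 TPM in the later-numbered WT cultures, with G234D below WT (-0.15 ± 0.066 (SE), adjusted p = 0.386). In set 2 it had 315, 333 and 360.1 TPM in G234D and 321 and 287 TPM in WT cultures. The genotypes did not overlap for 6 genes lower in G234D (30.2% of all genes) and for 6 genes higher in G234D (27.5% of all genes), which were Actg1, Tpm1, Flnc, Zyx, Tln1 and Pdlim5. These values rest on M1 and M2, in which the muscle, Schwann cell and macrophage sums were the highest of set 1; without both, no such difference can be had.

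The change of the genotype difference between the number groups was tested directly, as the later difference minus the earlier one. Called were 3 of the 33 genes, all below 0, against 2.73% of all genes: Zyx (-0.46 ± 0.093 (SE), adjusted p = 0.0176), Tpm1 (-0.45 ± 0.12 (SE), 0.0454) and Actg1 (-0.25 ± 0.064 (SE), 0.0454). The value was below 0 for 28 of the 33 genes (46.4% of all genes), with a median of -0.16 for the 33 and 0.018 for all genes. Next came Actn1 and Tagln, at -0.27 ± 0.073 (SE) and -0.31 ± 0.082 (SE) with adjusted p of 0.0524 and 0.0552. The count was 0 without W1, W2, W3, W4, M1 or M4, 1 without M2, M5, M6, W5 or W6, 4 without M7 and 7 without M3. With same-numbered cultures as a block, Zyx (adjusted p = 0.0373) and Tagln (0.0415) were called, while Actg1 (0.0824) and Tpm1 (0.0835) were not. The skeletal muscle markers also moved here, with 9 of 18 tested called below 0 and a median of -1.87, and 5 of 6 Schwann cell and melanocyte markers; their part in the values of the contractile genes was not tested.

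**Figure D4:**
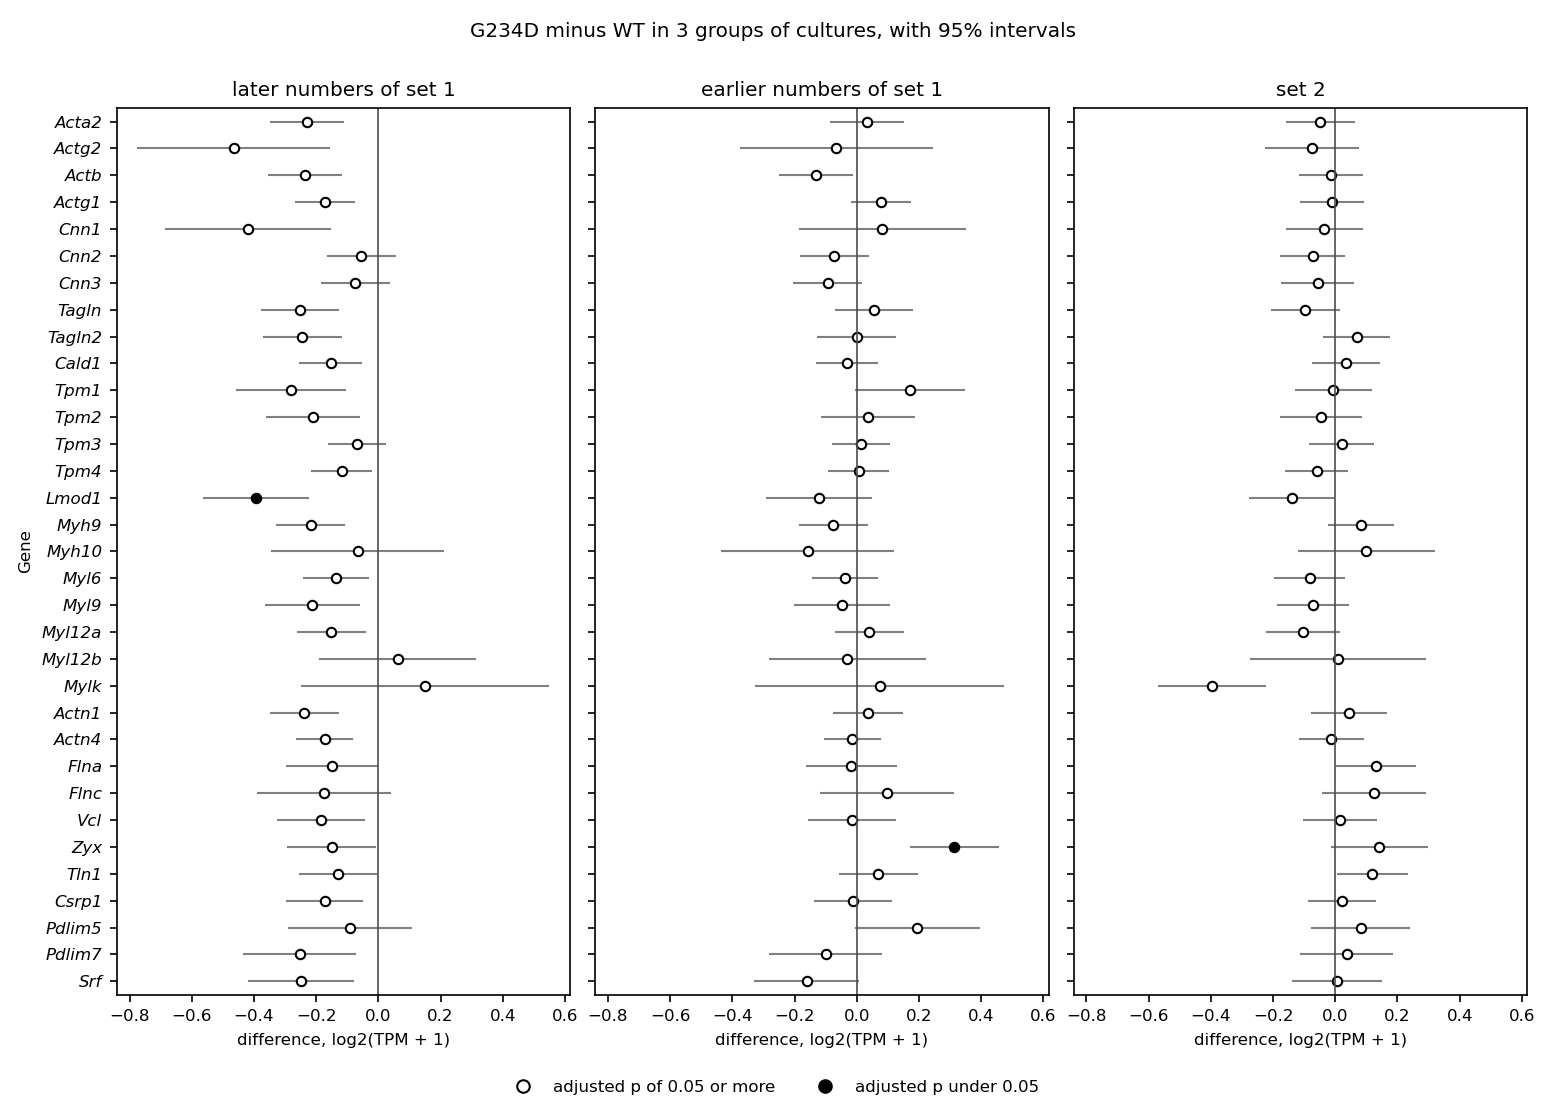
Genotype difference, G234D minus WT in log2(TPM + 1), for each of the 33 genes in the later-numbered cultures of set 1 (2 against 2), the earlier-numbered cultures of set 1 (2 against 2) and set 2 (3 against 2); points are estimates, lines 95% intervals, and filled points have an adjusted p under 0.05. The medians are -0.17, -0.012 and -0.0062, and the filled points are Lmod1 in the later-numbered and Zyx in the earlier-numbered cultures.

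Set 2 is a separate group of cultures, and it was set beside set 1 as a description. Its 5 cultures all lay below all 8 cultures of set 1 for Tagln2, Tpm3 and Flna, 3 of the 33 genes, against 10.4% of all genes. The median of set 2 minus set 1 over the 33 genes was -0.090 in G234D and -0.18 in WT cultures. Within set 2 the genotypes were on separate sides for 7 genes lower in G234D (Cnn2, Tagln, Tpm4, Lmod1, Myl6, Myl12a and Mylk; 7.02% of all genes) and for 4 higher in G234D (Tagln2, Myh9, Flna and Tln1; 16.6%). The Tagln to Tagln2 ratio within a culture was 5.66, 5.79 and 5.16 in M5, M6 and M7 and 6.18 and 6.21 in W5 and W6, and it lay between 4.28 and 4.88 in set 1.

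Other genes of the same machinery were counted beside the 33. Over both sets 0 were called in any of these lists. Their counts between number groups stand beside 4.35% of all genes called lower, 2.79% called higher and a median of -0.022. These counts were not taken without M1 and M2, where that comparison called 0 of the 33 genes and 0.108% of all genes. Between number groups, 8 of 33 other focal adhesion genes were lower in the later-numbered cultures and 1 was higher, with a median of -0.26; among the lower ones were Pdlim3 (-1.02), which binds alpha-actinin, Fermt2 (-0.36), the kindlin that activates integrins with talin, and Tes (-0.30), a LIM partner of zyxin. Of 25 tested genes of actin turnover and assembly 6 were lower and 0 higher, with a median of -0.12, led by Tmsb4x (-0.38), which sequesters actin monomers, Palld (-0.42), a scaffold of actin bundles, and Wdr1 (-0.22), a helper of cofilin. Of 15 SRF cofactors and other SRF targets 2 were lower, Fhl1 (-0.57) and Mical2 (-0.35), and 3 were higher, Egr2 (0.64), an immediate early gene, among them. In this list 9 were below 0 and 6 above 0, with a median of -0.041. The cofactor Myocd, the partner of SRF in smooth muscle, was under 1 TPM in all 13 cultures. Of 17 tested smooth muscle and pericyte markers outside the 33 genes, 12 were below 0 and 5 above 0, up to 0.46, with a median of -0.46. At an unadjusted p under 0.05 (limma), 8 were lower and 2 higher. Called were 5 lower and 0 higher, among them Rgs5 (-0.64), at only 0.36 to 1.56 TPM, Mcam (-0.55) and Notch3 (-0.46). This list summed to 745 and 755 TPM in M3 and M4, against 783 to 906 TPM in the other cultures of set 1, and Pln, a marker of mature smooth muscle and heart, was at 0 in all 13. Of 12 fibroblast markers, Pdgfra (1.12), a growth factor receptor, and Dcn (0.65), the proteoglycan decorin, were higher in the later-numbered cultures and Fap (-1.01), a protease of activated fibroblasts, was lower. The part of these markers in the values of the contractile genes was not tested.

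In the later-numbered cultures alone, G234D minus WT was below 0 for 29 of 33 other focal adhesion genes and for 22 of 25 actin turnover genes, with medians of -0.13 and -0.11, against 47.1% of all genes below 0. One gene of each passed, where 0.31% of all genes were called lower: Hspb1, a small heat shock protein that binds actin (-0.47, adjusted p = 0.00182), and Gsn, the actin-severing gelsolin (-0.28, adjusted p = 0.0259). The change of the genotype difference between number groups passed below 0 for 5 of 33 other focal adhesion genes, 4 of 25 actin turnover genes and 3 of 15 SRF cofactors and targets (2.73% of all genes), and above 0 for 1 of each of the first pair of lists (1.66% of all genes). The SRF targets that passed were Ccn2 (-0.85), a matrix-associated growth factor, Thbs1 (-0.47), thrombospondin, and Fhl1 (-0.51). The list as a whole was divided, with 8 of 15 below 0 and 7 above 0, up to 0.79, and a median of -0.0024.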

How the data were processed

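RNA of the 13 cultures was column-purified and made into stranded libraries, per the labels' protocols, and the submitters' processing notes name the build mm10. No label or header used here names the aligner, the counter or the annotation. The deposited values were TPM computed by the authors; they sum to 1000000 per culture, so the depth is unknown and no interval for counting error can be had. TPM were transformed to log2(TPM + 1), with a pseudocount of 1, and tested with limma 3.58.1 in R 4.3.3 (trend and robust empirical Bayes), which is the test the design names for this unit. Genes at 1 TPM or more in at least 6 cultures (4 within set 1, 2 within set 2) were kept. The p-values were adjusted by Benjamini-Hochberg over all genes tested and called under 0.05. The p-values measure the spread between cultures.

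The members and lists were chosen with earlier results of these data known. Described culture by culture were Acta2, Tagln, Cnn1 and Myl9, the 4 members with the smallest p in each of 3 comparisons, and members called, up to 12 by p; of other lists, up to 3 genes by p. Mylk, which the rule does not name, was described after its values were seen. Same-numbered G234D and WT cultures were matched by culture name, M1 with W1 and so on, not by title number. Deviations from group means correlated between them at 0.314, 0.236, 0.244 and 0.214 in set 1. Fits with same-numbered cultures as a block were run as alternatives, and the main fits held no such block. Other-numbered cultures of the same number group correlated at 0.0885 to 0.440, so the correlation follows the number group as well. Those of different number groups correlated at -0.454 to -0.132. Deviations sum to 0 within a genotype and set, so these negative values are not separate evidence. In set 2 same-numbered cultures correlated at -0.155 and 0.0138. The deviations of 2 WT cultures mirror each other, so M5 and M6 gave 0.155 and -0.0138 with the other WT culture. These values cannot show whether the numbers pair cultures in set 2. Identifiers of all 33 members matched GENCODE M21. Alternatives covered the pseudocount, filter, trend, robust step, scaling, blocks and left-out cultures. The models were checked on simulated data with independent noise in each gene and culture and no shift between number groups. The only condition set was that most changes of 2-fold or more be recovered over both sets. No conclusion on smaller changes or on fits of 2 cultures against 2 is drawn from it.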

Additional observations from a re-analysis of the deposited data

Results flagged for a closer look

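For 3 of the 33 genes the genotype difference itself differed between the number groups of set 1, by the test of the later difference minus the earlier one (limma, adjusted over all 11942 genes). Zyx gave -0.46 (adjusted p = 0.0176), with 2 of 2 G234D cultures below both WT cultures among the later numbers and 2 of 2 above among the earlier numbers. Tpm1 gave -0.45 and Actg1 -0.25 (adjusted p = 0.0454 each), with the same pattern of sides. With same-numbered cultures as a block, Zyx passed (adjusted p = 0.0373) and Tpm1 (0.0835) and Actg1 (0.0824) did not. The summed skeletal muscle markers were 159 and 109.6 TPM in M3 and M4, and 675 and 489.7 TPM in M1 and M2, and their part in these values was not tested. Within set 1, 66 groups of 4 cultures were checked for a culture far from the other 3, and none was found among the 33 genes. Each such group held 2 earlier-numbered and 2 later-numbered cultures. Where the number groups differ, the check can hardly single out a culture, so no conclusion on single cultures is drawn from it.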

How the results depend on the processing

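The genotype comparison over both sets, within each set and as an interaction called 0 of the 33 genes under almost every alternative run. This includes the runs with 1 culture left out (0 to 0). The exception was set 1 without M1 and M2, which called 1, Lmod1. That fit sets only later-numbered G234D cultures against WT cultures of both number groups. Medians of the 33 genes moved by less than 0.13, the spread between cultures of the same genotype and set, under nearly every alternative run. The exception was leaving out M1 and M2, which gave -0.24 for set 1 alone and 0.28 for the interaction. In set 1 that spread also holds the difference between number groups. It exceeds in size the main genotype medians of -0.060 (both sets), -0.092 (set 1), -0.0062 (set 2) and 0.081 (interaction). A median could thus vanish or change sign and still count as unmoved. The set 2 median also changed sign under quantile normalization (0.0050). Leaving out 1 culture at a time gave medians of -0.093 to -0.011 in all cultures, -0.17 to -0.020 for set 1 alone, -0.030 to 0.0089 for set 2 alone and 0.0052 to 0.18 for the interaction. The other counts that moved were the 4 that hold calls. In the later-numbered cultures the 1 call (range 0 to 1 with a culture left out) became 0 with no filter, no robust step, no trend, median-of-ratios scaling and set 1 only; quantile normalization kept 1 call, Tagln in place of Lmod1. In the earlier-numbered cultures the 1 call (range 0 to 1) became 0 with no trend. For the later minus earlier genotype difference the 3 calls (range 0 to 7) became 0 with no trend and 1 with set 1 only. For the number comparison the 15 calls (range 0 to 14) became 6 with no filter, 6 with no trend, 0 without M1 and M2, 25 in G234D cultures only and 0 in WT cultures only, the last 3 added after the data were seen, as were the other fits without M1 and M2 in set 1 and the interaction. The cause was not tested. Of values of single named genes called under some setting, 0 changed sign, 158 kept their side of the threshold, 112 lost it and 11 gained it. With the replicate block, the medians were -0.065 in all cultures, -0.092 for set 1 alone and -0.030 for set 2 alone. Of the 33 genes 0 were called. Of all genes the block called 1 in set 1 (0 without it) and 21 in set 2 (1 without it). Whether the numbers pair cultures in set 2 could not be checked. Added later for the other genotype comparisons, the block called 0 of the 33 in the interaction and 1 among the earlier numbers (Zyx). It called 1 among the later numbers (Actg2 in place of Lmod1) and 2 for the later minus earlier difference (Zyx and Tagln). For the number comparison the block could not be fitted, since same-numbered cultures lie in the same number group. Depth is unknown, transcripts shared between genes were counted in a way not given here, and with 2 cultures a side the number groups borrow their spread from the other cultures.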
